A study of Drosophila melanogaster with 6 samples.

Results

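The transcripts described here are those that differed between heads of mir-14 mutant flies and heads of control flies. The comparison takes the 4 arrays titled control or mutant, of the 6 in the series, 2 for each genotype; the other 2 arrays, of rescue flies, were left out. All flies were adult male Drosophila melanogaster of 5 days, reared alike, and RNA came from whole heads broken off frozen flies. Control flies are labelled wild-type, and mutant flies are homozygous mutants of mir-14, a microRNA gene. The labels name neither the allele nor the stock behind the controls, so the mutation and any other genetic difference between the control and mutant stocks cannot be told apart. They also do not say how many flies were pooled for an array. The titles call the replicates biological without saying what was separate, and p-values measure only the spread between the 2 arrays of a genotype. Each value is an intensity, the summarised brightness of a probe set, a group of short probes for 1 transcript. Changes are given as log2 differences, mutant minus control, so that 1 unit is a 2-fold change, with the standard error (SE) of the fit. A change passed where its p-value, adjusted over all probe sets, was under 0.05 in limma.

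A microRNA is a short RNA that pairs with sites in messenger RNAs and lowers their stability or translation, so transcripts it acts on directly tend to be higher in its absence, while further changes follow through other genes. miR-14 of Drosophila is known for effects on fat metabolism, cell death and steroid hormone signalling, and in the adult brain for acting in the insulin-producing cells, neurons that release insulin-like peptides into the blood. A fly head holds brain, eyes, antennae, muscle, cuticle and fat body, the insect tissue that combines roles of liver and fat. Because whole heads were measured, fewer cells of a type and less RNA per cell cannot be told apart for any transcript below. No probe set was read for miR-14 itself, and its level was not analysed here.

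The arrays had nearly equal median intensities, from 59.8 to 60.7, a result of the authors' normalization. The control replicates were less alike than the mutant replicates, with 571 against 104 probe sets that differed at least 1.5-fold between the 2 arrays of the genotype. A measure of RNA quality, the signal from the 5' end of actin mRNA over that from its 3' end, was 0.306 and 0.138 on control replicates 1 and 2 and 0.205 and 0.335 on mutant replicates 1 and 2. It was thus lowest on control replicate 2 and highest on mutant replicate 2, and the genotypes overlapped. Values below about 16 lie near those of 2 dim control probe sets, which read from 8.8 to 15.7, and a change to or from such a level may be understated. These 2 were picked by name, and the range of the other control probe sets was not used.

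Of 18769 probe sets, 1062 passed (5.66%), 715 of them higher in mutant heads (3.81%) and 347 lower (1.85%). Of the probe sets past the threshold, 215 were at least 2-fold higher and 103 at least 2-fold lower, and 40 and 21 passed a 4-fold change. With 1 probe set for each of the 11982 named genes, 608 genes rose (5.07%) and 245 fell (2.04%), and the median change of all these genes was 0. The control and mutant values of each of the 853 changed genes did not overlap, as was also true in the upward direction for 29.9% and in the downward direction for 27.6% of all named genes. The number of calls rested on both mutant arrays: the genes that rose were 434, 145, 4 and 5 and those that fell 166, 76, 1 and 2 without control replicate 1, control replicate 2, mutant replicate 1 and mutant replicate 2. Only 5 passed in both fits that left out a mutant array: Alp6, CG4962, Cyp6a17, Pepck2 and tobi. With the rescue arrays lending their spread to the fit, 378 of the 853 passed whichever control or mutant array was left out. Counts from these fits stand beside the larger gene groups below, where the 4 fits without 1 array are always given in the order of this paragraph. In the fits of control and mutant arrays without 1 mutant array, the spread came from the control replicates alone. All 853 genes kept the sign of their change without any 1 of the 4 arrays. At an unadjusted p under 0.05, 15.7% of all named genes were upward and 10.3% downward, and the unadjusted counts given below for single lists are to be read against these shares. The genes that rose and fell in a list are to be read against 5.07% and 2.04%, also where these shares are not repeated. The lists were chosen with earlier results of these data known, so a larger share describes a list and does not test it.

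**Figure D1:**
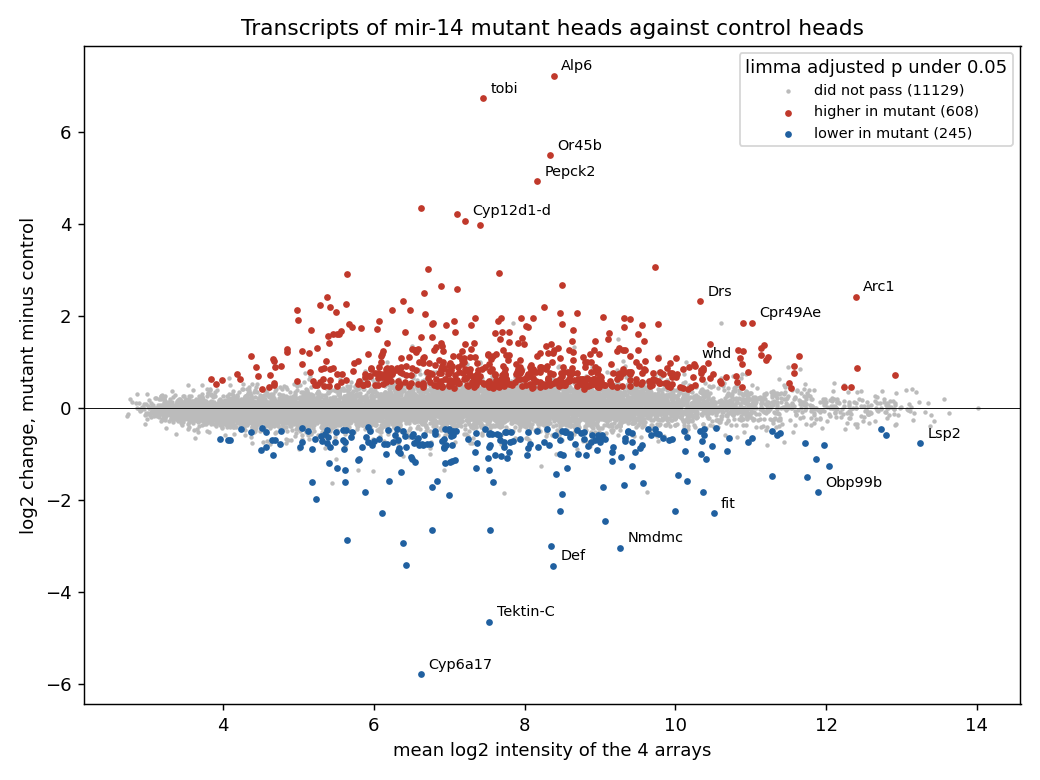
Mean log2 intensity of the 4 arrays (x axis) against the log2 change, mutant minus control (y axis), for 11982 named genes with 1 probe set each. Red points are the 608 genes that rose, blue points the 245 that fell and grey points those that did not pass, and the calls lie at all but the lowest intensities.

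The genes with the largest changes belong to several functions. Alp6, tobi, Or45b, Pepck2, CG16713 (4.35), CG11854 (4.22) and Cyp12d1-d rose over 16-fold. CG11854 was uneven within both genotypes, at 43.0 and 23.4 on the control arrays and 930.5 and 377.6 on the mutant arrays (SE 0.47). Without 1 array in turn its change was 4.66, 3.79, 3.57 and 4.87. Lower among the 15 largest rises, the activin ligand gene Actbeta read 98.6 and 206.3 on the control arrays and 892.4 and 920.8 on the mutant arrays, a change of 2.67 ± 0.32 SE, adjusted p = 0.0112. The leucine-rich repeat receptor gene kek5 read 48.4 and 46.7 on the control arrays and 311.4 and 284.8 on the mutant arrays (2.65 ± 0.093 SE, adjusted p = 0.000271). Another, dimmer probe set of kek5 did not pass (-0.13, adjusted p = 0.724), so its probe sets disagreed. CG4757 and CG18549 rose by 3.07 and 2.94, and the Methuselah-like receptor gene mthl8 by 3.02. CG4757 was uneven between the mutant arrays, at 3299.5 and 1852.7, against 316.1 and 272.7 in control heads. Among the falls, fit, a fat body gene named for its higher expression in females, went from 3564.6 and 2908.9 to 602.3 and 722.6 (-2.29 ± 0.14 SE, adjusted p = 0.00162). Jhedup, a relative of juvenile hormone esterase, read 203.0 and 113.1 in controls against 31.0 and 31.6 in mutants (-2.28 ± 0.26 SE, adjusted p = 0.00985). Scp2, which encodes a sarcoplasmic calcium-binding protein, fell by 2.23 on the log2 scale, from 2400.8 and 2031.6 to 471.6 and 468.6. CG32523 fell by 2.45 and CG30371 fell by 3.41.

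Some transcripts with very high intensities changed as well. Lsp2, a storage protein of the fat body, read 12693.3 and 12677.6 on the control arrays and 7835.2 and 7134.1 on the mutant arrays, a fall of 0.76 ± 0.092 SE (adjusted p = 0.011). Arc1, a capsid-like protein gene whose transcript responds to neuronal activity, moved the other way and read 2488.2 and 2186.6 on the control arrays and 12454.7 and 12469.6 on the mutant arrays (2.42 ± 0.1 SE, adjusted p = 0.0005). Its dimmer probe set gave a larger rise, 3.86 ± 0.34. The neuropeptide precursor gene Nplp3 rose from 3714.4 and 4370.5 to 7509.5 and 7195.2 (0.87 ± 0.11 SE, adjusted p = 0.0128). Among bright transcripts, CG4716 rose by 0.72, CG18135 fell by 1.26 and CG11211 fell by 0.81.

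In the 4 lists of sugar genes 7 genes passed, all upward, 3 of them in gluconeogenesis, the making of new glucose. Of 5 genes of gluconeogenesis 3 rose and none fell (limma; the remaining 2 did not pass), against 5.07% and 2.04% of all named genes, with a median change of 0.45. Pepck2, a phosphoenolpyruvate carboxykinase gene, read 52.3 and 52.1 on the control arrays and 1562.2 and 1614.4 on the mutant arrays (4.93 ± 0.084 SE, adjusted p = 1.9e-05). Pepck1, the gene of another such enzyme, read 8166.9 and 7547.0 on the control arrays and 10615.8 and 10264.2 on the mutant arrays and did not pass (0.41 ± 0.091 SE, adjusted p = 0.0621). Both genes read higher on both mutant arrays than on either control array. The fructose-1,6-bisphosphatase gene fbp rose from 1034.1 and 943.9 to 1965.2 and 1926.8 (0.98 ± 0.092 SE, adjusted p = 0.00536), and PCB, which encodes pyruvate carboxylase, by 0.45 ± 0.086 (adjusted p = 0.0425). G6P, the glucose-6-phosphatase gene, changed by 0.08 (adjusted p = 0.658). Without 1 array in turn the gluconeogenesis genes that rose were 2, 2, 1 and 1, and with the rescue arrays in the fit 2 to 4. Of 10 glycolytic genes only Pgi, the phosphoglucose isomerase gene, passed (0.55 ± 0.096 SE, adjusted p = 0.0333), and it did not when any 1 array was left out. The list had a median of 0.28, with 6 upward and 0 downward at an unadjusted p under 0.05. In the trehalose, glycogen and transport list, 2 of 14 rose, Pgm1, a phosphoglucomutase gene, by 0.49 ± 0.091 and AGBE, the glycogen branching enzyme gene, by 0.48 ± 0.095. Neither passed when 1 array was left out. The trehalose transporter gene Tret1-1 changed by -0.43 ± 0.094 (adjusted p = 0.0605). Of 12 genes of sugar digestion only tobi, an α-glucosidase gene, passed: it read 19.0 and 15.2 on the control arrays and 2252.4 and 1442.6 on the mutant arrays, so that it rose from near the level of dim control probe sets. The citric acid cycle had 0 of 11 genes past the threshold in limma, with 1 upward and 2 downward at an unadjusted p under 0.05.

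Several genes that burn fatty acids rose in mutant heads, while a main fat-releasing lipase fell. Fatty acids enter mitochondria through carnitine palmitoyltransferases, and both genes of this step rose. whd, the outer-membrane enzyme gene, read 883.5 and 862.6 on the control arrays and 1711.8 and 1693.4 on the mutant arrays (0.96 ± 0.084 SE, adjusted p = 0.00435). CPT2, the inner-membrane enzyme gene, read 373.0 and 355.4 on the control arrays and 578.3 and 565.4 on the mutant arrays (0.65 ± 0.086 SE, adjusted p = 0.0146). The replicates of each genotype were close to each other in both genes. The peroxisomal acyl-CoA oxidase gene Acox57D-d rose by 0.54 ± 0.1 (adjusted p = 0.0418). In all, 3 of 8 genes of fatty acid oxidation rose and none fell (limma), against 5.07% and 2.04% of all named genes, and the median change was 0.28; each of the 8 had a change above 0, as had 5906 of the 11982 named genes. Without 1 array in turn 2, 1, 0 and 0 of these rose, and 2 to 4 with the rescue arrays in the fit. A second probe set of whd, dim on every array, gave 0.01 (adjusted p = 0.949).

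In the list of fat storage proteins and lipases 1 of 9 fell, the triglyceride lipase gene bmm, which read 862.3 and 917.2 on the control arrays and 558.7 and 510.2 on the mutant arrays (-0.74 ± 0.095 SE, adjusted p = 0.0136). It kept its direction but not its call without control replicate 2 or either mutant array (adjusted p = 0.0879, 0.226 and 0.276). Lsd-2, a coat protein of lipid droplets, changed by -0.41 ± 0.11 (adjusted p = 0.091). Of 11 genes of fatty acid synthesis 0 passed in limma, with 1 upward and 0 downward at an unadjusted p under 0.05 and a median of 0.02. Among 16 lipid carriers and fat body products, Mtp, which loads lipid onto lipoproteins, rose from 584.5 and 577.4 to 1030.9 and 1015.4 (0.82 ± 0.084 SE, adjusted p = 0.007). Lsp2 fell, as above. The lipoprotein gene apolpp, whose product Mtp loads, changed by 0.14 ± 0.094 (adjusted p = 0.415). The calls of Mtp and Lsp2 did not hold without control replicate 2 or either mutant array.

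A pair of genes for enzymes that handle glycine and one-carbon units on folate were among the 15 largest falls. Nmdmc, the mitochondrial methylenetetrahydrofolate dehydrogenase gene, read 1939.1 and 1607.0 on the control arrays and 194.2 and 236.6 on the mutant arrays (-3.04 ± 0.14 SE, adjusted p = 0.000623). CG3999, which encodes the decarboxylase of the glycine cleavage system, read 841.5 and 700.1 on the control arrays and 176.8 and 149.9 on the mutant arrays (-2.24 ± 0.13 SE, adjusted p = 0.00147). Both were several-fold lower on either mutant array than on either control array. CG6415, the aminomethyltransferase of the same system, rose instead by 0.48 ± 0.091 (adjusted p = 0.0418), so these genes of that system changed in opposite directions. aay, a phosphoserine phosphatase gene of serine synthesis that is not in this list, fell by 0.77 (SE 0.092) and read 4517.6 and 4324.0 in controls against 2480.7 and 2689.7 in mutants. Of the 8 measured one-carbon and glycine enzymes 1 rose and 2 fell, against 5.07% and 2.04% of all named genes, with a median of -0.32. The serine hydroxymethyltransferase gene Shmt changed by -0.39 ± 0.11 (adjusted p = 0.11) and pug by -0.27 ± 0.1 (adjusted p = 0.207). The counts that fell were 2, 2, 0 and 0 without 1 array in turn and 2 in each such fit that kept the rescue arrays, and CG6415 did not pass without any 1 of the 4 arrays.

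**Figure D2:**
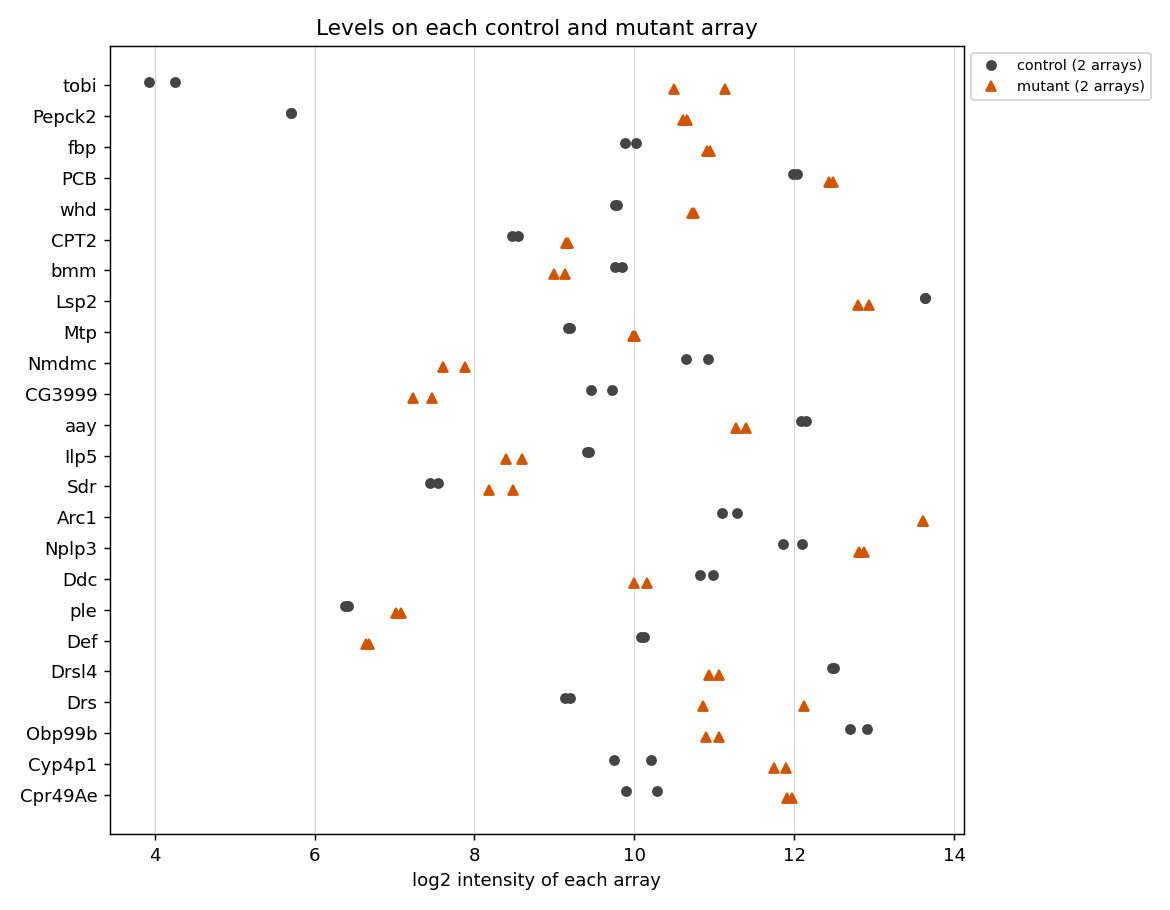
log2 intensity (x axis) of 24 genes (y axis) named in the text, on the 2 control arrays (grey circles) and the 2 mutant arrays (orange triangles). The control and mutant points of each gene are apart, for example Pepck2 from 52.1 and 52.3 to 1562.2 and 1614.4.

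Among peptides of the insulin-producing cells, Ilp5 fell and Ilp2 did not pass. Ilp5 read 678.8 and 688.4 on the control arrays and 388.1 and 337.4 on the mutant arrays (-0.92 ± 0.1 SE, adjusted p = 0.00899), and Ilp2 read 1126.8 and 1285.4 on the control arrays and 1106.2 and 1048.2 on the mutant arrays (-0.16 ± 0.1 SE, adjusted p = 0.405). Ilp5 was lower on both mutant arrays, whereas the values of Ilp2 did not overlap but lay close together. Sdr, a secreted relative of the insulin receptor, rose by 0.84 ± 0.12. The calls of Ilp5 and Sdr did not hold without control replicate 2 or either mutant array, and that of Sdr also not without control replicate 1. Of 6 insulin-like peptides and binding proteins 1 rose and 1 fell. In the insulin and TOR pathway, which relays the hormone's signal inside cells, 0 of 11 genes passed in limma, with 4 upward and 0 downward at an unadjusted p under 0.05 and a median of 0.15. InR, the insulin receptor gene, changed by 0.32 ± 0.099 (adjusted p = 0.136) and foxo, the transcription factor gene it acts on, by 0.34 ± 0.15 (adjusted p = 0.248). Akh, the glucagon-like hormone gene, changed by -0.15 (adjusted p = 0.403).

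Of 4 genes reported before as miR-14 targets and measured here, 0 passed in limma, with 2 upward and 0 downward at an unadjusted p under 0.05. sug, a sugar-responsive transcription factor, read 193.1 and 75.7 on the control arrays and 386.8 and 490.6 on the mutant arrays, with the larger spread between the control arrays (1.85 ± 0.42 SE, adjusted p = 0.0654). Its change passed with all 6 arrays in the fit (adjusted p = 0.0267), without control replicate 1 in the fit of 4 arrays the change was 2.52 (adjusted p = 0.0246) and without control replicate 2 it was 1.17 (adjusted p = 0.088). EcR, the ecdysone receptor gene, changed by 0.36 ± 0.15 (adjusted p = 0.234) and IP3K2, an inositol trisphosphate kinase gene, by 0.32 ± 0.12 (adjusted p = 0.206). The remaining gene, hh, the hedgehog ligand gene, changed by -0.14 ± 0.2 (adjusted p = 0.722). In the list of ecdysone synthesis and response, 2 of 18 rose, against 5.07% of all named genes. These were Hr3, a nuclear receptor gene induced by ecdysone, by 0.74 ± 0.11 and the kinase gene Eip63E by 1.10 ± 0.15. Leaving out 1 array in turn left 0, 1, 0 and 0 of these, and 1 to 5 with the rescue arrays in the fit. Of 9 cell death genes 1 fell, the pro-apoptotic gene skl, at 129.4 and 111.4 in controls against 64.4 and 78.3 in mutants (-0.76 ± 0.13 SE, adjusted p = 0.0343), and none rose. In the hedgehog pathway ihog, a co-receptor gene, rose by 0.70 ± 0.12 and the remaining 9 of 10 genes did not pass. Neither skl nor ihog passed when any 1 array was left out. Of 21 autophagy genes 0 passed in limma, with 4 upward and 1 downward at an unadjusted p under 0.05.

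Antimicrobial peptide genes were split, with more falls than rises. Of 12 measured, 6 fell and 1 rose, against 2.04% and 5.07% of all named genes, and the median change was -0.62. Def, the Defensin gene, fell by 3.43 (SE 0.085), from 1108.8 and 1083.2 to 100 and 102.9. The Drosomycin-like genes Drsl4 and Drsl5, bright in control heads, both fell, with changes of -1.49 and -1.11: Drsl4 read 5799.5 and 5699.7 on the control arrays and 2139.7 and 1950.0 on the mutant arrays. Drsl3 (-0.91), Listericin (-1.11) and AttD, an attacin gene (-0.85), fell too, the mutant values of Drsl3 being near those of dim control probe sets. Drs, the antifungal peptide gene Drosomycin, rose and read 562.5 and 586.8 on the control arrays and 4452.2 and 1856.3 on the mutant arrays (2.32 ± 0.38 SE, adjusted p = 0.0281), so the mutant arrays differed more than 2-fold from each other. Mtk, the Metchnikowin gene, read 459.5 and 1472.5 on the control arrays and 1849.1 and 4769.4 on the mutant arrays and did not pass (1.85 ± 0.64 SE, adjusted p = 0.172), and DptB read 298.3 and 1200.8 on the control arrays and 706.0 and 2398.4 on the mutant arrays (1.12 ± 0.79 SE, adjusted p = 0.447). In these last 2 genes replicate 2 was the higher array in both genotypes; the genotypes overlapped in DptB and not in Mtk. Without 1 array in turn 4, 3, 0 and 1 antimicrobial peptide genes fell, and 3 to 6 with the rescue arrays in the fit, while Drs passed in none of the former. Among genes of immune recognition and signalling GNBP3, a sensor of fungal cell walls, rose from 505.9 and 327.0 to 1019.2 and 948.0 (1.27 ± 0.21 SE, limma adjusted p = 0.0269). The kinase gene of the Toll pathway, pll, rose by 0.56 ± 0.084. In this list of recognition and signalling genes 2 of 25 rose (8.0%) and none fell, against 5.07% and 2.04% of all named genes. Without 1 array in turn the number of these that rose was 1, 1, 0 and 0, and 0 to 5 with the rescue arrays in the fit.

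Cytochrome P450 genes, which encode oxidases of foreign compounds, hormones and fatty acids, held several of the rises. Of 82 measured 14 rose (17.1%) and 2 fell (2.44%), against 5.07% and 2.04% of all named genes, with a median change of 0.12. Without 1 array in turn 16, 9, 0 and 0 rose, and 10 to 29 with the rescue arrays in the fit. Cyp12d1-d read 24.7 and 52.3 on the control arrays and 647.9 and 562.4 on the mutant arrays (4.07 ± 0.33 SE, adjusted p = 0.00376). It has a close copy beside it, Cyp12d1-p, and whether the probes tell the copies apart was not tested. Cyp4p1 read 1187.7 and 859.5 on the control arrays and 3435.7 and 3799.5 on the mutant arrays and Cyp4p2 read 55.7 and 56.7 on the control arrays and 366.8 and 310.2 on the mutant arrays, rises of 1.84 ± 0.17 and 2.59 ± 0.11. Cyp4d1, Cyp9h1, Cyp4e3 and Cyp304a1 rose by 2.12, 1.95, 1.83 and 1.60. Cyp28d1, Cyp6a13, Cyp6w1 and Cyp40 rose by 0.91, 0.74, 0.73 and 0.49. The falls were Cyp6a17 and Cyp4ac2, the latter by 0.80.

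The Cyp6a cluster on chromosome arm 2R shows how unevenly adjoining P450 genes changed. Cyp6a17 read 784.4 and 684.3 on the control arrays and 12.2 and 14.4 on the mutant arrays, so that in mutants it was as dim as the faint control probe sets. Its next gene Cyp6a23 read 202.9 and 148.6 on the control arrays and 670.1 and 782.3 on the mutant arrays (2.06 ± 0.17 SE, adjusted p = 0.00376). These neighbours thus moved in opposite directions, and, since they are related in sequence, whether their probe sets share signal was not tested. Further along, Cyp6a9 and Cyp6a8 rose by 1.40 ± 0.1 and 1.93 ± 0.11, while between and around them Cyp6a22, Cyp6a19, Cyp6a20 and Cyp6a21 did not pass, with changes from -0.46 to -0.04 and adjusted p from 0.145 to 0.912. Arm 2R, which carries mir-14, held 33 of the 82 P450 genes and 9 of the 14 that rose.

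**Figure D3:**
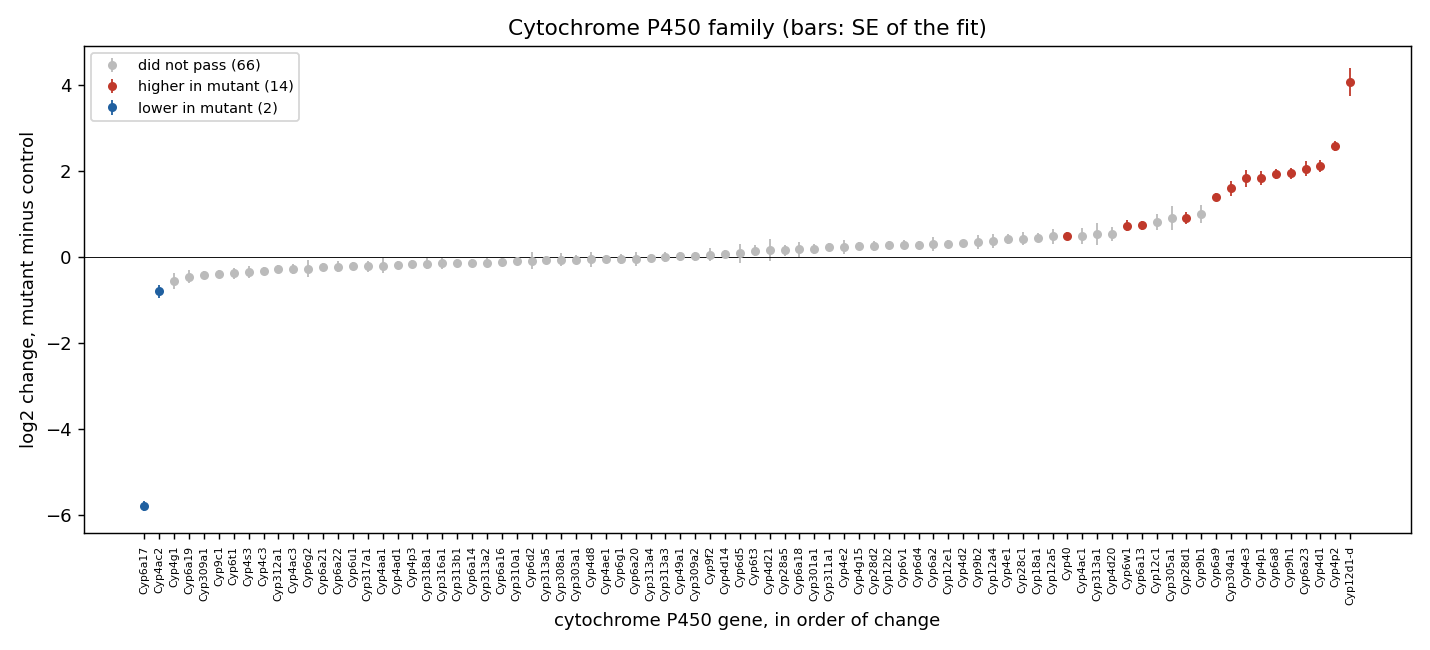
log2 change, mutant minus control (y axis), of 82 cytochrome P450 genes in order of change (x axis), with bars for the SE of the fit. The 14 red points are genes that rose, from 0.49 for Cyp40 to 4.07 for Cyp12d1-d, and the 2 blue points are Cyp4ac2 (-0.80) and Cyp6a17 (-5.79).

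In other detoxification families single genes changed. Of 34 glutathione S-transferase genes 4 rose and none fell in limma, against 5.07% and 2.04% of all named genes: GstE14, which also has a role in steroid synthesis, by 0.89 ± 0.18, GstT1 by 0.85 ± 0.093, GstZ1 by 0.69 ± 0.086 and GstO2 by 0.46 ± 0.088. The counts of those that rose were 8, 1, 0 and 0 without 1 array in turn and 2 to 13 with the rescue arrays in the fit. UDP-glycosyltransferases, which attach sugars to small molecules, had 4 of 35 up and 2 down, against 5.07% and 2.04% of all named genes. Ugt36E1 fell from 437.8 and 491.6 to 72.2 and 76.0 (-2.65 ± 0.099 SE, adjusted p = 0.000345), and Ugt49B1 fell by 0.73. Ugt35A1 and Ugt317A1 rose by 1.27 ± 0.11 and 1.08 ± 0.1. Without 1 array in turn 3, 1, 0 and 0 of this family rose and 1, 3, 0 and 0 fell, and with the rescue arrays in the fit 4 to 11 rose and 1 to 6 fell. Of 11 antioxidant enzyme genes Prx6c, a peroxiredoxin gene, was the 1 that rose, from 307.3 and 229.7 to 1016.3 and 1088.1 (1.98 ± 0.15 SE, adjusted p = 0.00291), and it has close copies that its probes may not tell apart. The superoxide dismutase gene Sod2 changed by -0.08 (adjusted p = 0.632).

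Some structural genes of the cuticle, the outer covering of the head, also rose. Of 104 cuticle protein genes 10 rose (9.62%) and 1 fell, against 5.07% and 2.04% of all named genes, while the median of the list was -0.05. Cpr49Ae read 954.8 and 1244.2 on the control arrays and 3855.9 and 4022.1 on the mutant arrays (1.85 ± 0.14 SE, adjusted p = 0.00291). Cpr51A read 216.6 and 187.0 on the control arrays and 756.6 and 947.3 on the mutant arrays (2.07 ± 0.14 SE, adjusted p = 0.00207). The Tweedle gene TwdlE read 17.0 and 19.6 on the control arrays and 144.8 and 130.7 on the mutant arrays (2.91 ± 0.11 SE, adjusted p = 0.000369), from near the dim controls. Each was several-fold higher on both mutant arrays than on either control array. Cpr76Bc, Cpr100A and Cpr92F rose by 1.54, 1.52 and 1.21, and Cpr97Eb, Cpr62Bc, Cpr50Cb and Cpr62Ba by 0.86, 0.75, 0.58 and 0.51. TwdlG, another Tweedle gene, fell by 1.03 (SE 0.17). Cuticle genes that rose numbered 7, 6, 0 and 0 without 1 array in turn and 7 to 14 with the rescue arrays in the fit.

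**Figure D4:**
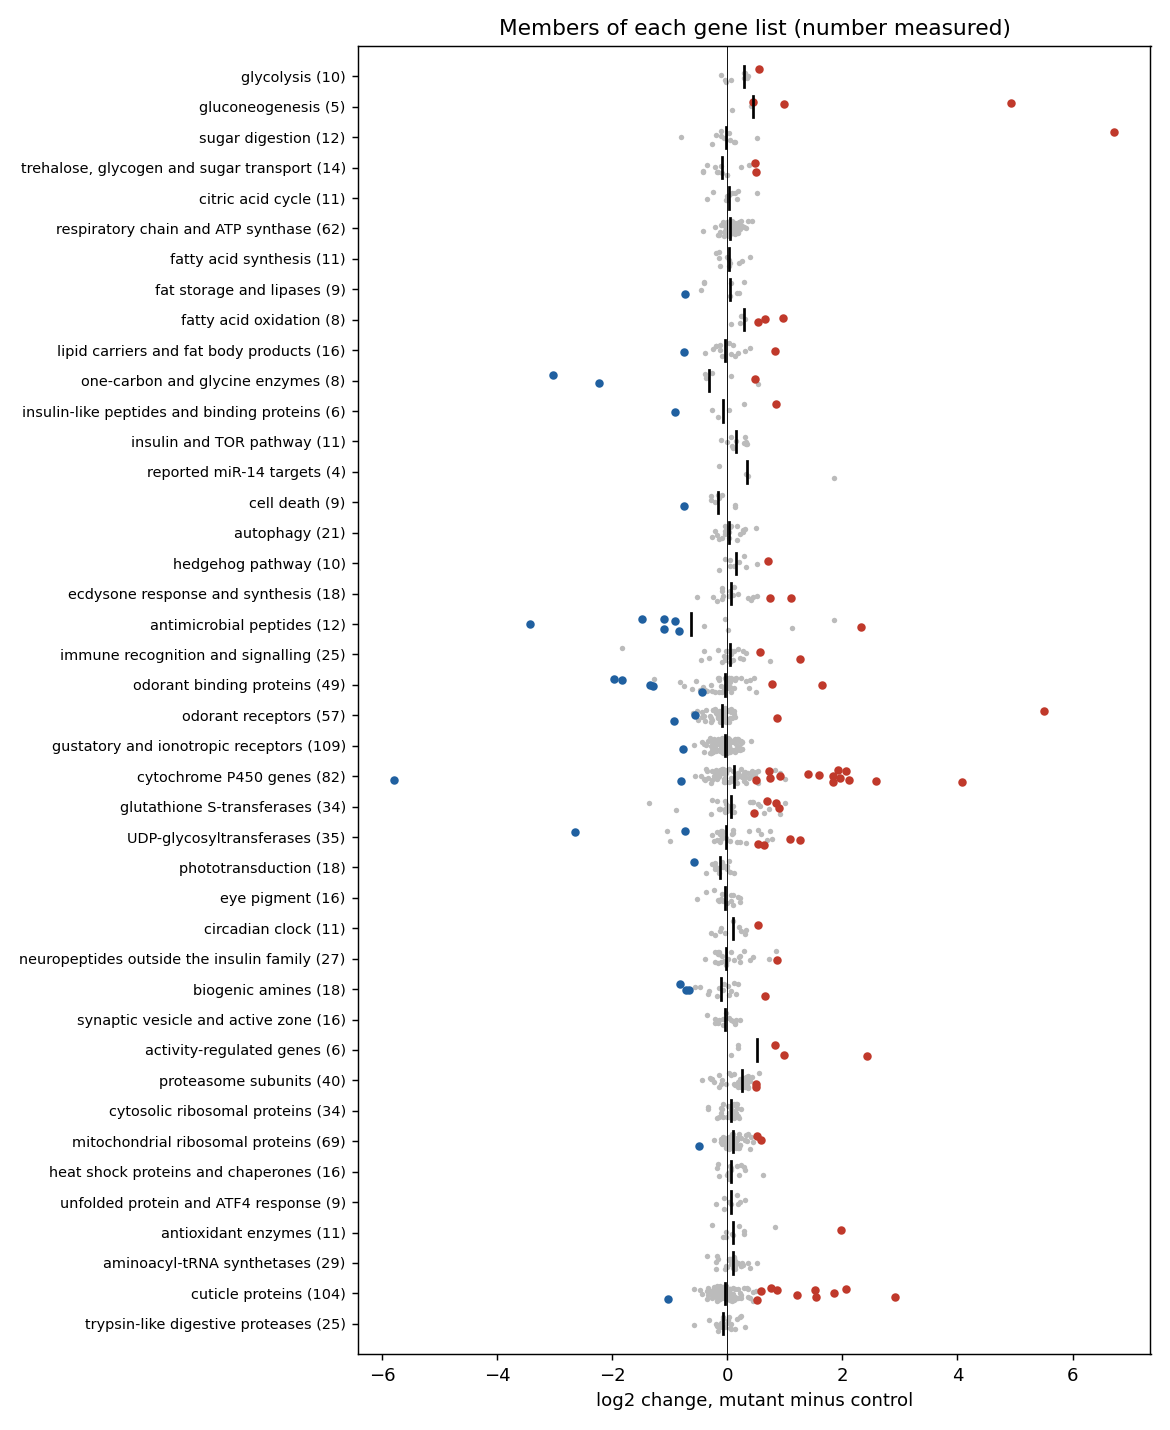
log2 change, mutant minus control (x axis), of every measured gene of each gene list (y axis, number measured in brackets). Red points rose, blue points fell, grey points did not pass and black bars mark the list medians, which lie between -0.62 for antimicrobial peptides and 0.51 for activity-regulated genes.

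In the chemosensory gene families, single genes changed while most members did not pass. Of 49 odorant binding proteins, which carry odours or other ligands in the fluid around sensory neurons, 2 rose and 5 fell, against 5.07% and 2.04% of all named genes. Obp99b read 7707.3 and 6627.1 on the control arrays and 2124.7 and 1897.8 on the mutant arrays (-1.83 ± 0.12 SE, adjusted p = 0.00167). Obp19a fell by 1.98 (SE 0.099) to values near those of dim control probe sets, and its other probe set fell by 1.08. Within 1 gene cluster the changes went both ways: Obp83g and Obp83cd rose by 1.65 and 0.77, and Obp83b fell by 1.35. Os-C, a secreted antennal protein gene, fell by 1.30. Leaving out 1 array in turn left 4, 4, 0 and 0 that fell and 3, 1, 0 and 0 that rose, and with the rescue arrays in the fit 4 to 11 fell and 2 to 7 rose. Of 57 odorant receptor genes 2 rose (3.51%) and 2 fell (3.51%), against 5.07% and 2.04% of all named genes. Those that rose were Or45b, which lies beside mir-14, and Or49b (0.87 ± 0.085). Those that fell were Or63a (-0.57 ± 0.1) and Orco. Orco, the shared co-receptor of most odorant receptors, read 124.8 and 97.8 on the control arrays and 55.5 and 60.2 on the mutant arrays (-0.93 ± 0.14 SE, adjusted p = 0.02); it did not pass where a mutant array was left out (adjusted p = 0.334 and 0.298). Odorant receptor genes that rose numbered 2, 2, 0 and 0 without 1 array in turn, and 2, 1, 0 and 0 fell, and with the rescue arrays in the fit 2 rose each time and 0 to 13 fell. Of 109 gustatory and ionotropic receptor genes Ir68a, a receptor gene of humidity-sensing neurons, fell by 0.78 (SE 0.093) and no other passed. In this list 2, 0, 0 and 0 fell without 1 array in turn, and 1 to 15 with the rescue arrays in the fit.

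Among genes of neuronal signalling, 3 of 6 activity-regulated transcripts rose, against 5.07% of all named genes, and 4 dopamine genes passed. Arc1 rose as above, its relative Arc2 from 75.2 and 66.9 to 128.5 and 124.0 (0.83 ± 0.098 SE, adjusted p = 0.0104), and sr, a zinc finger transcription factor gene induced by activity, by 0.98 ± 0.086. These were 3 of 6 activity-regulated genes, 3, 2, 0 and 0 without 1 array in turn and 2 to 3 with the rescue arrays in the fit. Dopamine is made from tyrosine by the enzymes of ple and Ddc, which moved in opposite directions. ple, the tyrosine hydroxylase gene, read 83.2 and 85.4 on the control arrays and 130.1 and 134.8 on the mutant arrays (0.65 ± 0.085 SE, adjusted p = 0.0141). Ddc, the dopa decarboxylase gene, read 1801.9 and 2025.4 on the control arrays and 1139.9 and 1022.2 on the mutant arrays (-0.82 ± 0.11 SE, adjusted p = 0.0139). The dopamine receptor genes Dop1R1 and Dop2R fell, with changes of -0.72 ± 0.12 and -0.67 ± 0.11. A second, dimmer probe set of Dop2R did not pass (-0.23, limma adjusted p = 0.446). The dopamine transporter gene DAT changed by 0.18 (adjusted p = 0.294). In all, 1 of 18 biogenic amine genes rose and 3 fell, against 5.07% and 2.04% of all named genes; without 1 array in turn 4, 0, 0 and 0 fell, and with the rescue arrays in the fit 1 to 4. Of 27 neuropeptide genes outside the insulin family Nplp3 alone passed. Genes of synaptic vesicles and active zones had 0 of 16 past the threshold in limma, with 0 upward and 3 downward at an unadjusted p under 0.05 and a median of -0.05.

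In the eye, 1 of 18 phototransduction genes fell, the light-activated channel gene trpl, at 8260.6 and 9090.6 in controls against 5972.2 and 5613.7 in mutants (-0.58 ± 0.096 SE, adjusted p = 0.0287), and its call did not hold when any 1 array was left out. The main channel gene trp changed by -0.21 ± 0.09 (adjusted p = 0.249). Of 16 eye pigment genes 0 passed in limma, with 0 upward and 2 downward at an unadjusted p under 0.05. Of 11 clock genes per, a core repressor of the clock, rose by 0.54 ± 0.087 (adjusted p = 0.0264) and did not pass when any 1 array was left out.

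In the lists of basic cell upkeep, no larger share of genes rose or fell than the 5.07% and 2.04% of all named genes. Proteasome subunits came nearest, with 5.0% higher. At an unadjusted p under 0.05, however, 19 of these 40 genes were upward, against 15.7% of all named genes. Of 40 proteasome subunits 2 rose, Prosalpha4 by 0.50 ± 0.086 and Rpn6 by 0.49 ± 0.095, with 19 upward and 1 downward at an unadjusted p under 0.05 and a median of 0.25; without 1 array in turn 1, 0, 0 and 0 rose, and 0 to 18 with the rescue arrays in the fit. Of 69 mitochondrial ribosomal protein genes 2 rose, mRpL20 (0.58 ± 0.086) and mRpL9 (0.51 ± 0.09), and 1 fell, mRpL39 (-0.50 ± 0.087), and none passed when 1 array was left out. Genes of the respiratory chain and ATP synthase (62 measured), cytosolic ribosomal proteins (34), aminoacyl-tRNA synthetases (29), heat shock proteins and chaperones (16), the unfolded protein response (9) and trypsin-like digestive proteases (25) had 0 members past the threshold in limma. In the order of these lists, 5, 0, 6, 2, 2 and 0 members were upward and 1, 2, 1, 0, 0 and 1 downward at an unadjusted p under 0.05. The heat shock gene Hsp26 read 745.4 and 125.8 on the control arrays and 358.0 and 617.8 on the mutant arrays and did not pass (0.62 ± 0.79 SE, adjusted p = 0.683), a spread within the control genotype wider than the difference between genotypes.

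Markers of the cell types in a head were used to check its makeup. Neuron markers were present on all arrays, with 1 of 5 lower: Appl, a neuronal membrane protein gene, fell by 0.51 (SE 0.085), whereas elav, which marks neurons in general, changed by 0.03 (adjusted p = 0.885). Their summed intensity was 6480.5 and 5956.1 in controls against 5015.9 and 5142.1 in mutants, lower on both mutant arrays. Without Appl it was 3485.5 and 2979.2 in controls against 2885.6 and 3083.9 in mutants, where the genotypes overlapped. Sums without the members that passed, here and below, drop genes by their outcome, so they cannot check whether the makeup was alike. Of 7 glia markers moody, a gene of the blood-brain barrier, rose by 0.64 ± 0.084, and repo, which marks nearly all glia, changed by -0.26 (adjusted p = 0.183). Glia markers summed to 8970.6 and 8124.8 in controls against 9416.8 and 10147.7 in mutants. Without moody they summed to 8406.5 and 7544.1 in controls against 8526.2 and 9257.3 in mutants. Both sums were higher on both mutant arrays. The median change of the 7 glia markers, 0.50, was 0.62, -0.03, 0.64 and 0.10 without 1 array in turn. It was 0.08 with the 5' to 3' ratios of actin and GAPDH as a covariate. At an unadjusted p under 0.05 in limma, 2 glia markers were upward and 2 downward. Fat body markers summed to 25966.8 and 24524.4 in controls against 21933.9 and 20853.7 in mutants, with Mtp higher and Lsp2 lower as above. Without these 2 genes the sum was 12689.0 and 11269.4 in controls against 13067.8 and 12704.2 in mutants. The mutant arrays thus read higher, but the nearest values, 12689.0 and 12704.2, barely differed. The brightest of the members left read up to 10217.3, so the sum rests mainly on 1 gene. The 2 measured photoreceptor markers summed to 12580.3 and 13742.5 in controls against 12164.0 and 11959.3 in mutants, and the 5 muscle markers to 2826.1 and 3328.8 in controls against 3484.0 and 3223.4 in mutants. None of the members of these last lists passed in limma, with 0 photoreceptor markers at an unadjusted p under 0.05 and, of the muscle markers, 1 upward and 2 downward. The part of any shift in cell makeup in the results above was not tested.

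Blood cell markers varied within both genotypes: the 8 genes summed to 1850.5 and 1053.9 in controls against 1026.3 and 1491.5 in mutants, and 0 passed in limma, with 1 upward and 2 downward at an unadjusted p under 0.05. The prophenoloxidase gene PPO1 read 308.0 and 133.3 on the control arrays and 96.2 and 237.8 on the mutant arrays. Control replicate 1 and mutant replicate 2 were its higher arrays, and these also had the higher 5' to 3' ratios; the part of RNA quality in this was not tested. Markers of tissues outside the head were low, apart from Tektin-C in control heads. The 5 gut markers summed to 263.1 and 296.4 in controls against 263.6 and 238.6 in mutants, and the 8 accessory gland markers, no one of which exceeded 44.5, to 168.4 and 176.2 in controls against 159.6 and 156.4 in mutants. Of 11 testis and sperm genes Tektin-C, a microtubule protein gene, fell and read 821.4 and 1043.9 on the control arrays and 38.5 and 35.5 on the mutant arrays, while the other 10, none above 74.2, summed to 238.6 and 259.8 in controls against 237.5 and 221.0 in mutants.

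Genes that changed were found on every chromosome arm, in shares from 6.21% of the measured genes of the X chromosome to 7.68% of those of 3L, apart from the small chromosome 4 with 2 of 65. On 2R, which carries mir-14, the share was 7.21%. Along 2R, however, the share was higher near mir-14. Counting measured genes outward as they lie in Release 6 plus ISO1 MT, the assembly of the gene table, 2 of the nearest 10 changed (20%, places 1 to 5 on either side), 8 of the next 40 (20%, places 6 to 25), 17 of the next 150 (11.3%, places 26 to 100) and 20 of the next 400 (5.0%, places 101 to 300), against 7.01% of the rest of 2R and 7.12% of the other arms. These shares are descriptions, and no test was made. The nearest 2 on one side are Or45b, an odorant receptor gene, and Alp6, an alkaline phosphatase gene. Or45b read 56.8 and 40.5 on the control arrays and 2240.2 and 2103.7 on the mutant arrays (5.50 ± 0.17 SE, adjusted p = 0.000178). Alp6 read 25.4 and 29.6 on the control arrays and 4207.6 and 3982.4 on the mutant arrays (7.22 ± 0.11 SE, adjusted p = 1.9e-05). Both were dim on the control arrays and among the 15 largest rises. In places 6 to 25, Pdk, the pyruvate dehydrogenase kinase gene, read 1833.4 and 1822.5 on the control arrays and 980.8 and 858.0 on the mutant arrays (-0.99 ± 0.1 SE, adjusted p = 0.00676), Mad1, a spindle checkpoint gene, fell by 0.86, and GstT1 rose by 0.85 and trpl fell by 0.58. Cyp4p1 and Cyp4p2 stood at places 27 and 28 and Def at place 66. Linkage to the mutated locus and the loss of miR-14 cannot be told apart for these genes, since the mutation was homozygous in all mutant flies. Pdk and Mad1 were named here for their place, after their values were seen.

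**Figure D5:**
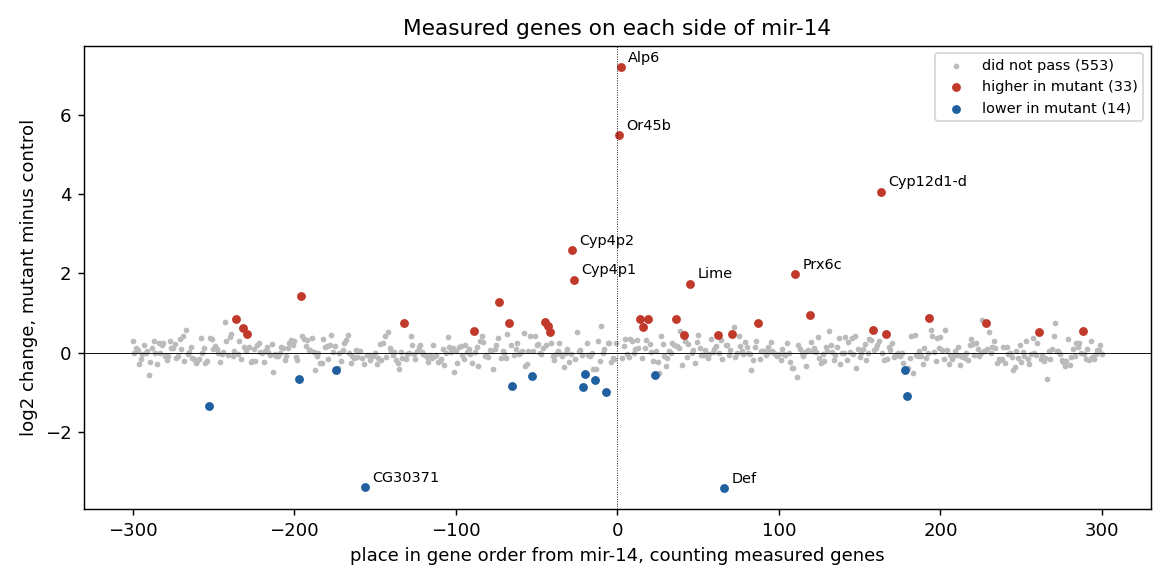
log2 change, mutant minus control (y axis), of the 600 measured genes nearest to mir-14, by place in gene order on either side (x axis, mir-14 at 0). Of them 33 rose (red) and 14 fell (blue), and Or45b and Alp6 at places 1 and 2 stand highest, at 5.50 and 7.22.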

How the data were processed

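The authors deposited 1 table of intensities made with RMA, per the submitters' processing notes, a method that in its usual form corrects background, normalizes arrays by quantiles and summarises probes; for the RMA version, none is given in the sources used here. Values are linear, so log2 was taken. Quantile normalization removes any change shared by all transcripts, and RMA compresses changes of dim probe sets. The table has no detection calls. The 183 probe sets that start with AFFX were left out of tests, which left 18769, of which 13647 had 1 gene symbol in the platform annotation, 402 several and 4720 none; 13544 of the first matched the gene table of Release 6 plus ISO1 MT and 0 symbols changed. The brightest probe set stood for a gene.

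The comparison was fitted on the 4 arrays with lmFit and eBayes of limma 3.58.1 (R 4.3.3; two-sided, Benjamini-Hochberg over the 18769 probe sets, threshold 0.05), with 2 residual degrees of freedom and 3.79 from the prior. The procedure was tested on simulated data, drawn with equal spread in both groups. The control and mutant replicates differed in spread, so that test does not measure how reliable the calls here are. The number of arrays limits the precision. Exact permutation cannot pass 0.05 with 2 arrays against 2. Alternatives were all 6 arrays, each array left out, the replicate number as a block, array weights, an intensity trend, a filter on dim probe sets, another quantile normalization, the 5'/3' index of actin and GAPDH added as a covariate, an offset, and the mean of a gene's probe sets; the fits without 1 array that kept the rescue arrays, and the crossed pairing, were added after seeing the data. The gene lists and the rule for named genes were chosen with earlier results of these data known. The rule takes the 15 largest rises and 15 largest falls, the 10 brightest genes that changed at least 1.5-fold, up to 6 changed members of each list, and 15 fixed names. Members added in a sentence to complete a list or a gene cluster were chosen after their values were seen. Same-numbered replicates did not deviate together: the differences between replicates 1 and 2 of the 2 genotypes correlated at -0.255 over probe sets, so the numbers were not used as pairs.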

Additional observations from a re-analysis of the deposited data

How the results depend on the processing

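The probe sets higher and lower in mutant heads, 715 and 347 as reported, kept their larger number upward in every alternative run. They numbered 1291 and 729 with all 6 arrays in the fit, 1352 and 857 with the 5'/3' index of actin and GAPDH added as a covariate, 431 and 204 with the replicate block and 1270 and 746 with the crossed pairing. The cause of these shifts was not tested. Without 1 of the 4 arrays, which leaves 1 residual degree of freedom, the counts ranged from 6 to 535 higher and from 1 to 331 lower, lowest without a mutant array, where the spread rests on the control replicates and the lone mutant array is assumed to vary like them. With all 6 arrays in the fit and 1 control or mutant array left out they ranged from 407 to 2152 and from 185 to 1877, with 1031 and 586 without control replicate 2, 407 and 208 without mutant replicate 1 and 420 and 185 without mutant replicate 2. Array weights, an intensity trend, the filter on dim probe sets, a second quantile normalization and the offset moved both counts by less than 1.5-fold. With the mean of a gene's probe sets, 809 genes rose and 324 fell. Of the 853 genes that changed, 847 passed with all 6 arrays, 483 with the replicate block and 853 with the covariate. With the replicate block, 3 antimicrobial peptide genes rose and 5 fell, in place of 1 and 6. Among named genes, signs changed only in 3 that did not pass as reported: Hsp26 (-0.66 without control replicate 2, in both sets of fits, -0.22 with the covariate and up to 1.90 without control replicate 1, where it passed with all 6 arrays, adjusted p = 0.00607), chp (0.06 and 0.03 in the same settings, down to -0.09 without control replicate 1) and elav (-0.03 without control replicate 1 and -0.05 without mutant replicate 1, in both sets of fits, -0.04 after a second quantile normalization, up to 0.11 without mutant replicate 2). Probe sets with a mean log2 intensity under 4 passed in 4 of 2947 cases upward and 5 downward, so changes of dim transcripts may be missed.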

Other observations

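Purine synthesis, which uses one-carbon units and glycine, was looked at after the values were seen, so its counts are a description. Of 9 measured genes 2 fell and 1 rose, against 2.04% and 5.07% of all named genes, and the median change was 0.06. Prat2, which encodes the amidophosphoribosyltransferase of the first committed step, read 4430.0 and 3850.3 on the control arrays and 1637.5 and 1362.7 on the mutant arrays (-1.47 ± 0.13 SE, adjusted p = 0.00442). Its relative Prat read 75.3 and 64.9 on the control arrays and 75.4 and 79.3 on the mutant arrays (0.15 ± 0.11 SE, adjusted p = 0.464). Adsl, the adenylosuccinate lyase gene, read 857.0 and 940.8 on the control arrays and 500.9 and 366.4 on the mutant arrays (-1.07 ± 0.16 SE, adjusted p = 0.0219), and Pfas, the gene of another enzyme of the route, read 676.7 and 713.1 on the control arrays and 1385.7 and 1353.8 on the mutant arrays (0.98 ± 0.087 SE, adjusted p = 0.00446). The other 5 genes, Adss, Gart, Paics, bur and ras, had changes from -0.27 to 0.29 and adjusted p from 0.128 to 0.778.

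In 2 genes probe sets passed in opposite directions. For be the changes were -1.63 ± 0.24 SE and 0.67 ± 0.1 SE, and for hts, an adducin-like gene, they were -0.95 ± 0.09 SE at a bright probe set (951.0 and 1015.0 in control, 497.2 and 519.3 in mutant heads) and 0.45 ± 0.089 SE at a dim one (19.0 and 19.5, then 27.3 and 25.4). These genes were named after their values were seen.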
